A study of Homo sapiens with 6 samples.

Results

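Lysosomes tell the cell whether nutrients are at hand through a chain of proteins on their surface, and 42 genes of that chain were followed in SW620 cells that overexpress ELAPOR1. The 42 were chosen by symbol from a deposited table of 60605 genes: 17 subunits and accessory proteins of the V-ATPase proton pump, and 25 genes of the Ragulator scaffold, the Rag GTPases, mTORC1 with its activator RHEB, the TSC complex, the folliculin complex, GATOR1, the MiT transcription factors and the lysosomal calcium channel MCOLN1. All 42 were in the table and all 42 were among the 16003 genes with enough counts to be tested.

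SW620 is a human colorectal cancer cell line, and ELAPOR1 is a transmembrane protein of the endosome and lysosome system. The 3 ELAPOR1 libraries came from cells infected with a pLVX-IRES-Puro lentivirus carrying ELAPOR1, and the 3 vector libraries from cells infected with the empty virus. Cells of both groups were infected at a multiplicity of 20 with virus packaged in HEK293T cells, were selected with 2 ug/ml puromycin, and were grown in DMEM with 10% fetal bovine serum, so that puromycin selection and viral integration are shared by both groups. The sources used here name no clones and do not say whether the 3 libraries of a group came from separate infections or cultures. The p-values therefore reflect how far these 6 libraries vary, and that variation could be technical in part or in whole.

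The V-ATPase uses ATP to pump protons into the lysosome, with a membrane sector (V0) that carries the protons and a cytosolic sector (V1) that burns the ATP. The pump also contacts Ragulator, which anchors heterodimers of RagA or RagB with RagC or RagD to the lysosome. When amino acids are plentiful the Rags bring mTORC1 to the lysosome, where RHEB switches it on. GATOR1 and the TSC complex are the brakes on the Rags and on RHEB, and the folliculin complex acts on RagC and RagD. Active mTORC1 keeps TFEB and its relatives TFE3 and MITF in the cytosol, and when it is inactive they enter the nucleus and turn on lysosomal genes, many of the pump's own subunits among them, through a promoter element built on the letters CACGTG. Most of this control acts on protein location and phosphorylation, which mRNA levels do not measure.

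Total counts ran from 16401813 to 20571924 per library, and the 42 genes held between 0.226% and 0.232% of them. ELAPOR1 itself stood at 11.5, 10.99 and 8.73 CPM (counts scaled to library size with TMM factors) in vector 1, 2 and 3, and at 21494, 21112 and 20771 CPM in ELAPOR1 1, 2 and 3, as the labels say. Of the colorectal epithelium markers, CDX2, KRT8 and KRT20 fell and CDH17 rose among 9 tested of 10, and the summed level of the list was 7260 to 7627 CPM in the vector group and 7029 to 7042 CPM in the ELAPOR1 group. Of the other cell types looked for, fibroblast markers summed to 17.6 to 18.8 CPM in the vector group and 24.9 to 30.1 CPM in the ELAPOR1 group, with LUM as the only one of 3 tested that rose, and immune markers summed to 5.71 to 7.87 and 7.91 to 8.30 CPM with MS4A1 at 0 in every library. Endothelial markers summed to 1.97 to 2.81 CPM over all 6 libraries with CDH5, KDR and TEK at 0, and markers of acid-secreting cells and osteoclasts to 4.02 to 5.58 CPM with FOXI1 at 0. What part these markers have in the results that follow was not tested.

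Promoter sequences come first, since the CACGTG-based element is the feature through which TFEB and TFE3 are known to act on many of these genes. RefSeq promoter windows (GRCh38.p14) were available for 34 of the 42, and those of ATP6V0E1, ATP6V1A, ATP6V1B2, ATP6V1C1, ATP6V1H, RRAGA, RRAGD and MLST8 were not in the table used. The letters CACGTG, the core shared by the TFEB element and the sites of many other factors, occurred within 250 bases upstream of a listed start for 11 of the 34 genes (32.4%), against 7.73% of the 27305 genes in the table. The longer form TCACGTGA, which contains the core, occurred for 5 (14.7%, against 1.04%), and the full form GTCACGTGAC, which contains both, for 3 (8.82%, against 0.374%). Each of the 3 words reads the same on both strands. The 27305 genes include many that were not tested here, whereas all 34 were. Of the 10898 tested genes in that table, 1206 held the core, 216 the longer form and 86 the full form. TFEB's target network was itself defined in part by this element, so that its frequency here describes the list and is no new evidence about it. Shown here are the 3 genes with the full form, then LAMTOR4 as the other changed gene with a match, then RRAGC and FNIP1 as Rag and folliculin examples of the bare core. Capitals mark the matched letters, and each sequence runs 5′ to 3′ on the strand of its gene.
ATP6V1G1, chr9:114587683-114587744, plus strand: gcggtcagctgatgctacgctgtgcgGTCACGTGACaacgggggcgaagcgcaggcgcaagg
MCOLN1, chr19:7522556-7522623, plus strand: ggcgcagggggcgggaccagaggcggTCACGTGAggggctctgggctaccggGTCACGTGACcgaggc
RRAGB, chrX:55717712-55717741, plus strand: ggtagcggcaGTCACGTGACagactccggg
LAMTOR4, chr7:100148894-100148917, plus strand: cggctgcaagCACGTGaccggggc
RRAGC, chr1:38859853-38859910, minus strand: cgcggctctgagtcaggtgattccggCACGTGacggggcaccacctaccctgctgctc
FNIP1, chr5:131797161-131797218, minus strand: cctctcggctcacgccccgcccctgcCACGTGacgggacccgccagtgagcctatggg
The match shown lies 51 bases before the listed start in ATP6V1G1, 7 in MCOLN1 (the nearer of its 2 matches), 18 in RRAGB, 9 in LAMTOR4, 107 in RRAGC and 170 in FNIP1. RRAGB and FNIP1 each hold another CACGTG, at 110 and 89 bases. The windows of RRAGB and LAMTOR4 overlap annotated exons of the same genes and are shown shorter for that reason. The ATP6V1G1 window overlaps no exon of GENCODE 29, but the deposited start of that gene, at base 114587706, lies inside it. Its match is upstream of the listed RefSeq start and not of the deposited one. A match of letters is a description and not a bound site.

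The genes of the chain were expressed over a wide range in SW620 cells, and within each machine the deposited FPKM of the subunits was far from equal. Levels are compared between genes only in the deposited FPKM, which divides by exonic length. That length can differ between annotations, as for ATP6V1G1 with 3455 bases as deposited and 1305 in GENCODE 29. The order of genes by FPKM depends on the lengths used. The highest vector mean was that of ATP6V1F, a subunit of the pump's central shaft, at 72.6 ± 3.80 FPKM (SD, n = 3), followed by the membrane subunit ATP6V0E1 at 43.9 ± 0.934 and by RRAGA at 36.4 ± 1.92. LAMTOR2 at 34.9 ± 0.982 FPKM and RRAGA were not separated in the vector group, where their libraries overlapped.

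Among the catalytic and regulatory subunits of V1 the vector means were 21.8 ± 0.651 FPKM for ATP6V1A, which binds the ATP, and 17.8 ± 0.200 for its partner ATP6V1B2. ATP6V0C, whose protein forms the ring that carries the protons, stood at 10.1 ± 0.734 FPKM, but 72.1% of its exonic bases are shared with readthrough genes on the same strand in GENCODE 29, so that its counts depend on how shared reads were assigned. Ragulator ran from LAMTOR2 down to LAMTOR3 at 6.22 ± 0.324 FPKM, although these form a pair in the complex. LAMTOR3 was the lowest of the 5 Ragulator genes in every library of both groups.

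The regulators were spread over a wide range too. RHEB stood at 21.3 ± 0.488 FPKM in the vector group, beside 19.4 ± 0.769 for the pump's accessory gene ATP6AP2. MTOR stood at 9.77 ± 0.898 FPKM and RPTOR, the subunit of mTORC1 that recruits substrates, at 5.93 ± 0.212 in the vector group. The TSC genes, FLCN, FNIP2, RRAGC, RRAGD and MCOLN1 lay between 1.81 and 2.24 FPKM, and DEPDC5, the GATOR1 subunit that tethers the complex to the lysosome, at 1.10 ± 0.0808. Of the MiT factors TFE3 was the abundant one at 14.9 ± 0.567 FPKM, while TFEB stood at 0.330 ± 0.144 and MITF at 0.110 ± 0.0265. TFEB and MITF were thus measured on few reads, 19 to 54 counts per library for TFEB and 10 to 20 for MITF.

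**Figure D1:**
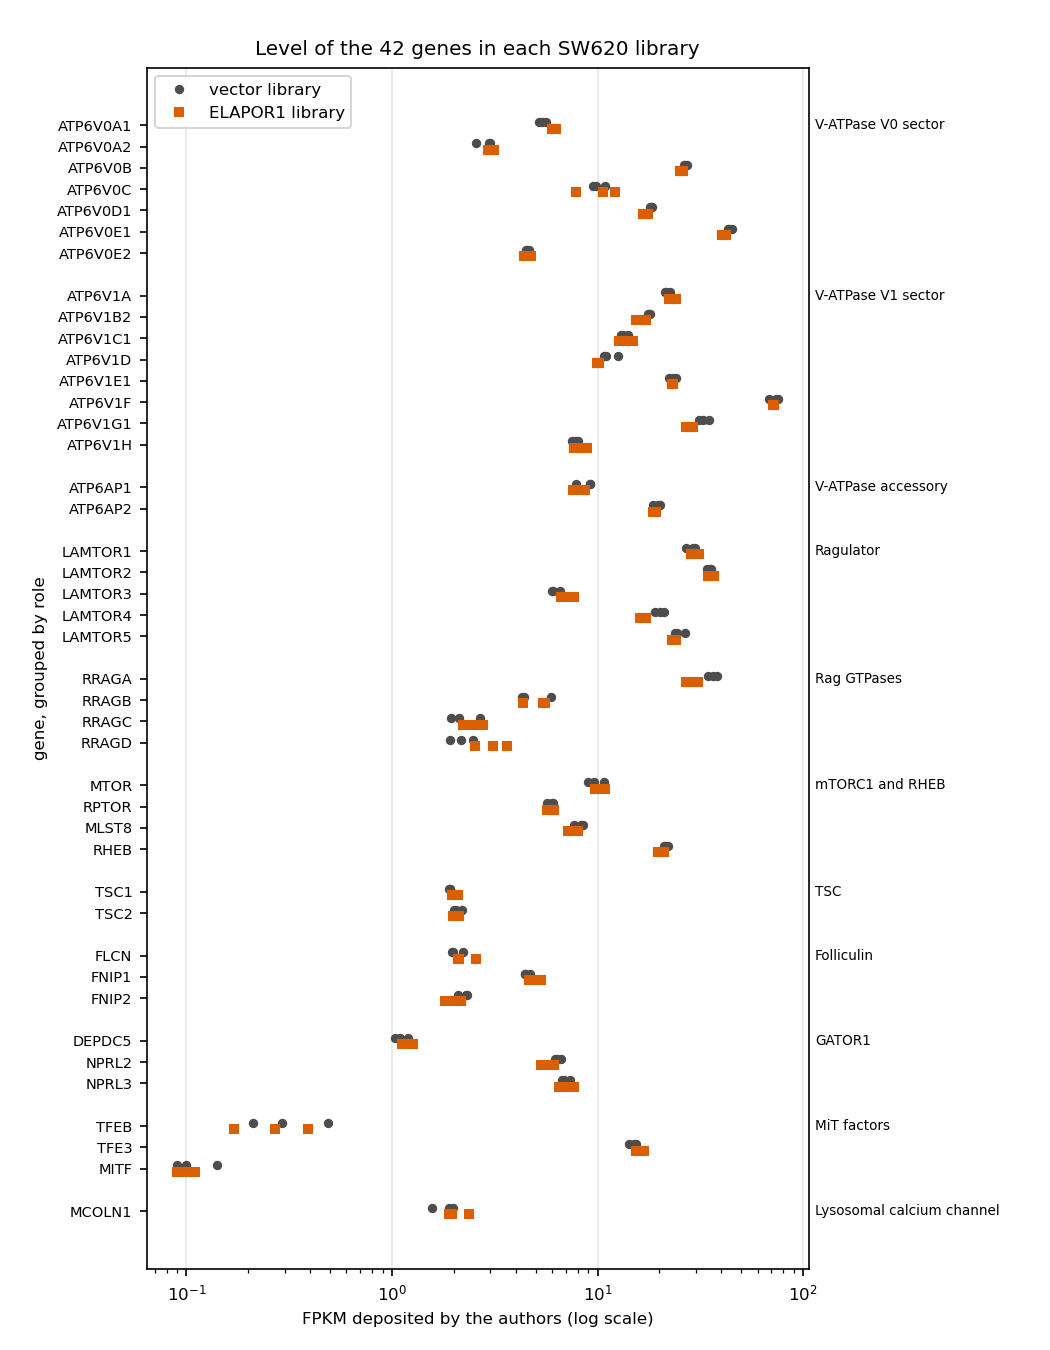
Deposited FPKM (log axis) of the 42 genes, grouped by role, with 1 point per library: grey circles for the 3 vector libraries and orange squares for the 3 ELAPOR1 libraries. Vector means span 0.110 FPKM for MITF to 72.6 FPKM for ATP6V1F, and for most genes the points of both groups lie on top of each other.

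Overexpression of ELAPOR1 went with small changes in few of these genes. At an adjusted p under 0.05 (edgeR quasi-likelihood test, Benjamini-Hochberg over all genes tested), 6 of the 42 changed, or 14.3%, against 21.4% of all 16003 genes, and against 27% of the 11038 genes that averaged 5 CPM or more, as 40 of the 42 did. The pump subunit ATP6V0A1 and the GTPase RRAGD rose (2 genes, against 10% of all genes higher). The pump subunits ATP6V1G1 and ATP6V1D, the Ragulator subunit LAMTOR4 and the GTPase RRAGA fell (4 genes, against 11.4% lower). Called genes were thus not more frequent here than in the transcriptome as a whole.

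Most of the changes were small in size. The log2 fold changes of the 42 genes (ELAPOR1 minus vector) had a median of 0.02 beside 0.00 for all genes, and ran from -0.31 to 0.52, with 23 above 0 and 19 below. Their median size without sign was 0.10, beside 0.14 for all genes. The libraries of both groups did not overlap for 13 of the 42 (31%), against 33.8% of all genes. For 39 of the 42 the 95% interval of the change, not adjusted for the number of genes, lay inside 1.5-fold in either direction, against 65.8% of all genes. The 3 exceptions were RRAGD, which rose, and TFEB and MITF, which were too scarce for a narrow interval. In bulk RNA a lower level of a gene in fewer cells and a lower level per cell cannot be told apart.

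**Figure D2:**
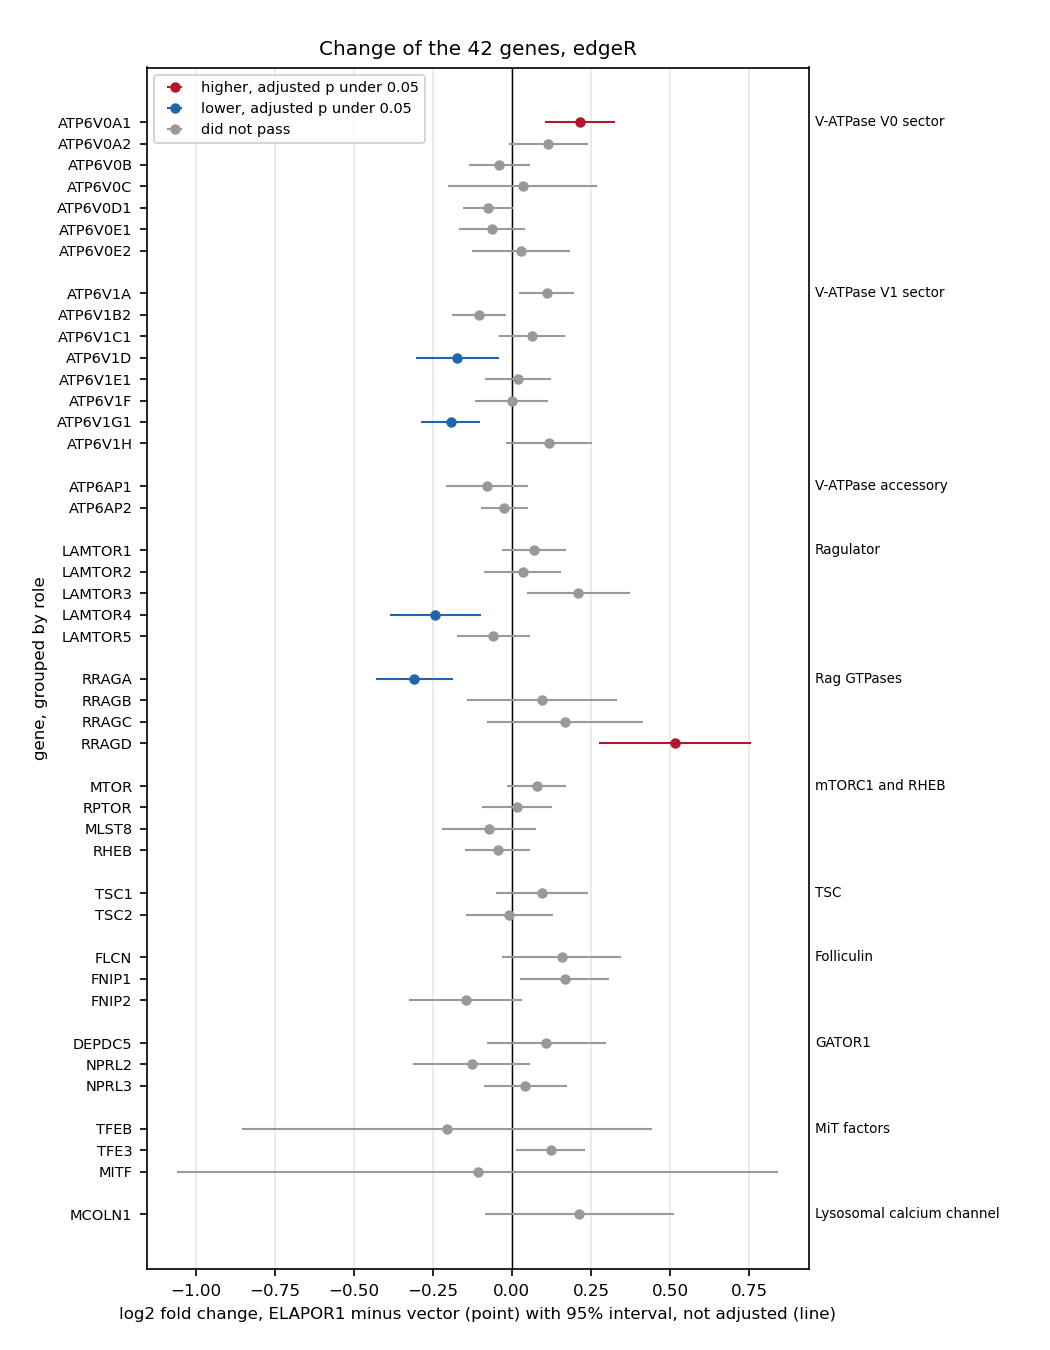
Log2 fold change of each of the 42 genes (point) with its 95% interval (line, not adjusted for the number of genes), ELAPOR1 minus vector, coloured by whether the edgeR adjusted p was under 0.05. The 6 coloured genes lie between -0.31 and 0.52, and the widest intervals belong to TFEB and MITF.

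In the V-ATPase the called subunits went in different directions. Of the 17 pump genes 3 changed (17.6%, against 21.4% of all genes), 1 of 7 in V0 and 2 of 8 in V1. Their median log2 fold change over the 17 genes was -0.00. ATP6V0A1 (ENSG00000033627, chr17:42458844-42522582, GRCh38) encodes an isoform of subunit a, the arm through which protons pass and which touches V1. It stood at 60.7, 58.6 and 56.1 CPM in the vector libraries and at 68.8, 65.6 and 69.4 CPM in the ELAPOR1 libraries, so that every ELAPOR1 library was above every vector library. It rose by 0.22 on the log2 scale (SE 0.06, 1.16-fold, edgeR adjusted p = 0.00208). With limma on the deposited FPKM its adjusted p was 0.0579 to 0.103.

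The V1 subunits that changed belong to the stalks that join the motor to the membrane. ATP6V1G1 (ENSG00000136888, chr9:114587706-114598915) encodes a subunit of the outer stalk that holds the motor still. It stood at 111, 107 and 120 CPM in the vector libraries and at 94.2, 102 and 99.1 CPM in the ELAPOR1 libraries, lower in all 3, with a log2 fold change of -0.19 (SE 0.05, 0.874-fold, edgeR adjusted p = 0.000948). ATP6V1D (ENSG00000100554, chr14:67294371-67360265) encodes the rotating shaft. Its vector libraries read 46.2, 53.4 and 45.4 CPM and its ELAPOR1 libraries 43.7, 42.7 and 42.5 CPM, with a log2 fold change of -0.17 (SE 0.07, edgeR adjusted p = 0.049).

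The call on ATP6V1D is the weakest of the 6. Vector 2 stands apart at the top, and without it the log2 fold change was -0.09 with an edgeR adjusted p of 0.439. The call was lost in 11 of 16 other settings, and 6.33% of the exonic bases of ATP6V1D overlap EIF2S1 on the opposite strand, a gene with 19824 counts beside 5042 that itself fell by 0.12 on the log2 scale. Whether the reads of that overlap were assigned by strand was not stated in the labels or notes.

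The other 14 pump genes gave log2 fold changes from -0.10 for ATP6V1B2 to 0.12 for ATP6V1H, and none passed. ATP6V1A was at 108, 109 and 115 CPM in the vector group and 116, 119 and 124 CPM in the ELAPOR1 group, which do not overlap, with a log2 fold change of 0.11 (95% interval 0.02 to 0.20, edgeR adjusted p = 0.0603). ATP6V1B2, its partner in the catalytic ring, gave -0.10 (-0.19 to -0.02, adjusted p = 0.0698). ATP6V0C read 13.8, 13.4 and 15.3 CPM against 17.4, 11.1 and 15.1 CPM, and the ELAPOR1 libraries lay on both sides of the vector libraries (0.03, interval -0.20 to 0.27, adjusted p = 0.887). The accessory proteins ATP6AP1 and ATP6AP2 gave -0.08 and -0.02. For each of these 14 genes the interval excluded a change of 1.5-fold.

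The Rag GTPases held both the largest fall and the largest rise among the 42 genes. Of these 4 genes 2 changed, against 21.4% of all genes. RRAGA (ENSG00000155876, chr9:19049427-19051025) is the main RagA-type gene of these cells. It stood at 58.0, 54.9 and 60.9 CPM in the vector libraries and at 49.6, 46.9 and 43.7 CPM in the ELAPOR1 libraries, each of which is below all of the vector libraries. It had a log2 fold change of -0.31 (SE 0.06, 0.807-fold, edgeR adjusted p = 6.18e-05), and its call held in all 16 other settings.

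RRAGD (ENSG00000025039, chr6:89364616-89412273) is a RagC-type partner that is itself a known target of TFEB and TFE3 in other cells. It stood at 9.71, 10.99 and 12.6 CPM in the vector libraries and at 16.0, 13.0 and 18.6 CPM in the ELAPOR1 libraries, where the lowest ELAPOR1 library was just above the highest vector library. It rose by 0.52 on the log2 scale (SE 0.12, 1.43-fold, edgeR adjusted p = 0.00067). With limma on the deposited FPKM the call was lost, at adjusted p of 0.0876 to 0.217. RRAGB gave 0.09 (interval -0.14 to 0.33) and RRAGC 0.17 (-0.08 to 0.41), and neither passed. Neither RRAGA nor RRAGD shares exonic bases with another annotated gene.

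Ragulator had 1 call among 5 genes (20%, against 21.4% of all genes). LAMTOR4 (ENSG00000188186, chr7:100148907-100155944), which pairs with LAMTOR5 in the scaffold, stood at 36.6, 40.7 and 38.6 CPM in the vector libraries and at 33.1, 33.4 and 31.4 CPM in the ELAPOR1 libraries. All ELAPOR1 libraries were lower, with a log2 fold change of -0.24 (SE 0.07, 0.846-fold, edgeR adjusted p = 0.00965). The adjusted p was 0.0828 without vector 2 and 0.0564 without ELAPOR1 3. In GENCODE 29, 18.4% of its exonic bases overlap C7orf43 on the opposite strand, which had 1316 counts and a log2 fold change of 0.04.

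Its partner LAMTOR5 gave -0.06 and LAMTOR2 0.03. LAMTOR3 lay higher in every ELAPOR1 library (27.2, 25.2 and 24.8 against 29.3, 27.9 and 32.2 CPM, log2 fold change 0.21, interval 0.05 to 0.37) but missed the threshold at an edgeR adjusted p of 0.0567. LAMTOR1, which anchors the complex in the membrane by its lipid tail, read 77.2, 79.6 and 71.7 against 78.6, 84.0 and 77.5 CPM, and its groups overlapped (0.07, adjusted p = 0.378).

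**Figure D3:**
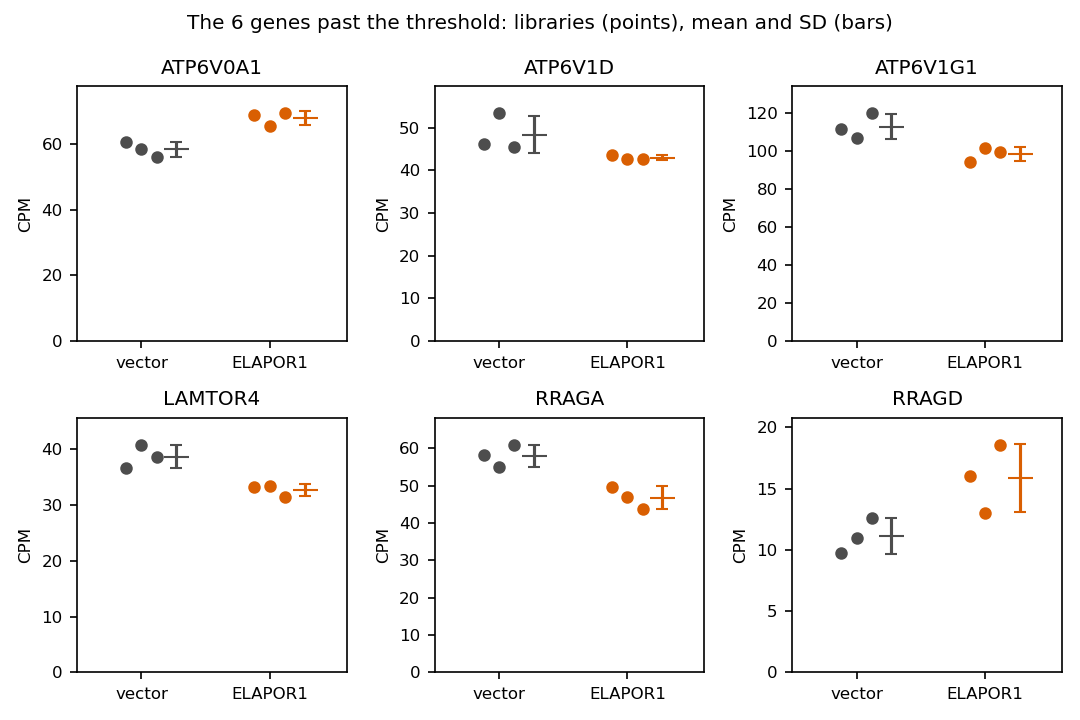
CPM of the 6 genes whose adjusted p was under 0.05, with each library as a point and the mean and SD of the 3 libraries beside them, on axes that start at 0. The groups do not overlap in any panel, and the lowest ELAPOR1 library of RRAGD (13.0 CPM) lies just above its highest vector library (12.6 CPM).

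No gene of mTORC1, the TSC complex, the folliculin complex, GATOR1, the MiT family or the calcium channel passed the test, nor did the accessory proteins of the pump. Of these 18 genes 2 had an unadjusted edgeR p under 0.05, FNIP1 and TFE3, and neither DESeq2, which gave an adjusted p for 17 of them, nor limma on log2(FPKM + 1), which tested 16, called any (those tools called 16% and 14.3% of all genes). The kinase gene MTOR read 129, 108 and 116 CPM in the vector libraries and 133, 122 and 119 CPM in the ELAPOR1 libraries, with a log2 fold change of 0.08 (interval -0.02 to 0.17, edgeR adjusted p = 0.26). Vector 1 was the highest of its group, and without it the change of MTOR was 0.15 with an adjusted p of 0.0214.

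RPTOR read 62.1, 58.4 and 61.8 CPM against 59.0, 61.3 and 63.9 CPM, which overlap fully (0.02, interval -0.09 to 0.13, adjusted p = 0.882). MLST8 and RHEB gave -0.07 and -0.04. The brakes gave no call either: TSC2, the arm of the TSC complex that acts on RHEB, read 38.8, 41.98 and 38.02 against 39.1, 40.9 and 38.3 CPM (-0.01, interval -0.15 to 0.13, adjusted p = 0.96), and TSC1 gave 0.10. TSC2 overlaps PKD1 on the opposite strand, which fell by 0.23 on the log2 scale. The GATOR1 genes DEPDC5, NPRL2 and NPRL3 gave 0.11, -0.13 and 0.04.

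The folliculin complex, which acts on RagC and RagD and thereby on TFE3 and TFEB, leaned in different directions in its parts. FLCN read 21.5, 19.1 and 19.3 against 20.8, 25.1 and 20.8 CPM (0.16, interval -0.03 to 0.35, edgeR adjusted p = 0.254). FNIP1 gave 0.17 with groups that do not overlap (adjusted p = 0.0843), and its paralog FNIP2 gave -0.15 (adjusted p = 0.27). None of these passed.

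TFE3, the MiT factor that these cells express, read 59.4, 63.2 and 64.0 CPM in the vector libraries and 71.8, 65.9 and 65.6 CPM in the ELAPOR1 libraries, with a log2 fold change of 0.12 (interval 0.01 to 0.23, edgeR adjusted p = 0.107). Its ELAPOR1 libraries were all above the vector libraries, by a narrow margin. TFEB read 1.94, 1.40 and 3.27 against 1.17, 1.83 and 2.64 CPM (-0.20, interval -0.85 to 0.44, adjusted p = 0.734). That interval is wide, and the values do not exclude a change inside it in either direction. MITF gave -0.11 with an interval of -1.06 to 0.84. MCOLN1, whose channel releases calcium that activates TFEB, read 7.82, 6.15 and 7.46 against 9.47, 7.57 and 7.80 CPM (0.21, interval -0.09 to 0.51, adjusted p = 0.353).

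Several of these proteins are built from paralogs that can take each other's place, and the share of each in the summed FPKM of its family was compared over the 6 libraries. With 3 against 3 the exact permutation test cannot go below p = 0.1, and 6 families were tested. ATP6V0A1 made up 33.8%, 32.0% and 33.3% of the subunit a transcripts in the vector libraries and 34.9%, 34.1% and 37.0% in the ELAPOR1 libraries, which do not overlap (exact permutation p = 0.1, adjusted 0.2). By FPKM the most abundant subunit a gene was TCIRG1, the isoform known from osteoclasts and from lysosomes of other cells, at 49.0% ± 1.64 and 46.8% ± 0.989 (SD, n = 3), and ATP6V0A4, known from the kidney, was at 0.462% and 0.622%. That order rests on the division by exonic length, 4375 bases for TCIRG1, 10926 for ATP6V0A1 and 17214 for ATP6V0A2. In CPM, which is not divided by length, the vector means were 34.8, 58.5 and 48.5 in the same order of genes.

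RRAGA gave 86.1%, 88.7% and 89.96% of the RagA and RagB transcripts in the vector libraries and 87.7%, 84.3% and 83.0% in the ELAPOR1 libraries. The groups overlapped (exact permutation p = 0.2, adjusted 0.24). RRAGD gave 49.9%, 44.7% and 54.1% of the RagC and RagD transcripts against 58.3%, 50.6% and 56.7%, and these overlapped as well (exact permutation p = 0.2, adjusted 0.24). In neither Rag family did the share separate the groups. RRAGC shares 22.9% of its exonic bases with a gene on the same strand in GENCODE 29, so that its counts depend on how shared reads were assigned.

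FNIP1 gave 65.6%, 65.8% and 69.1% of the FNIP transcripts in the vector libraries and 73.4%, 71.0% and 69.9% in the ELAPOR1 libraries. These do not overlap, and the mean difference of 4.62 percentage points stood beside an SD of 1.98 in the vector group and 1.78 in the ELAPOR1 group (exact permutation p = 0.1, adjusted 0.2). ATP6V0E1 gave 90.6% ± 0.0561 and 90.1% ± 0.398 of its family (exact permutation p = 0.1, adjusted 0.2). The other gene of that family, ATP6V0E2, shares 19.7% of its exonic bases with other genes in GENCODE 29. Among them ATP6V0E2-AS1, on the opposite strand with 330 counts beside 3383, rose by 0.70 on the log2 scale (edgeR adjusted p = 0.0373). TFE3 gave 97.0% ± 0.755 and 97.5% ± 0.816 of the MiT transcripts (exact permutation p = 0.5, adjusted 0.5), with TFEB at 2.14% and 1.71%.

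**Figure D4:**
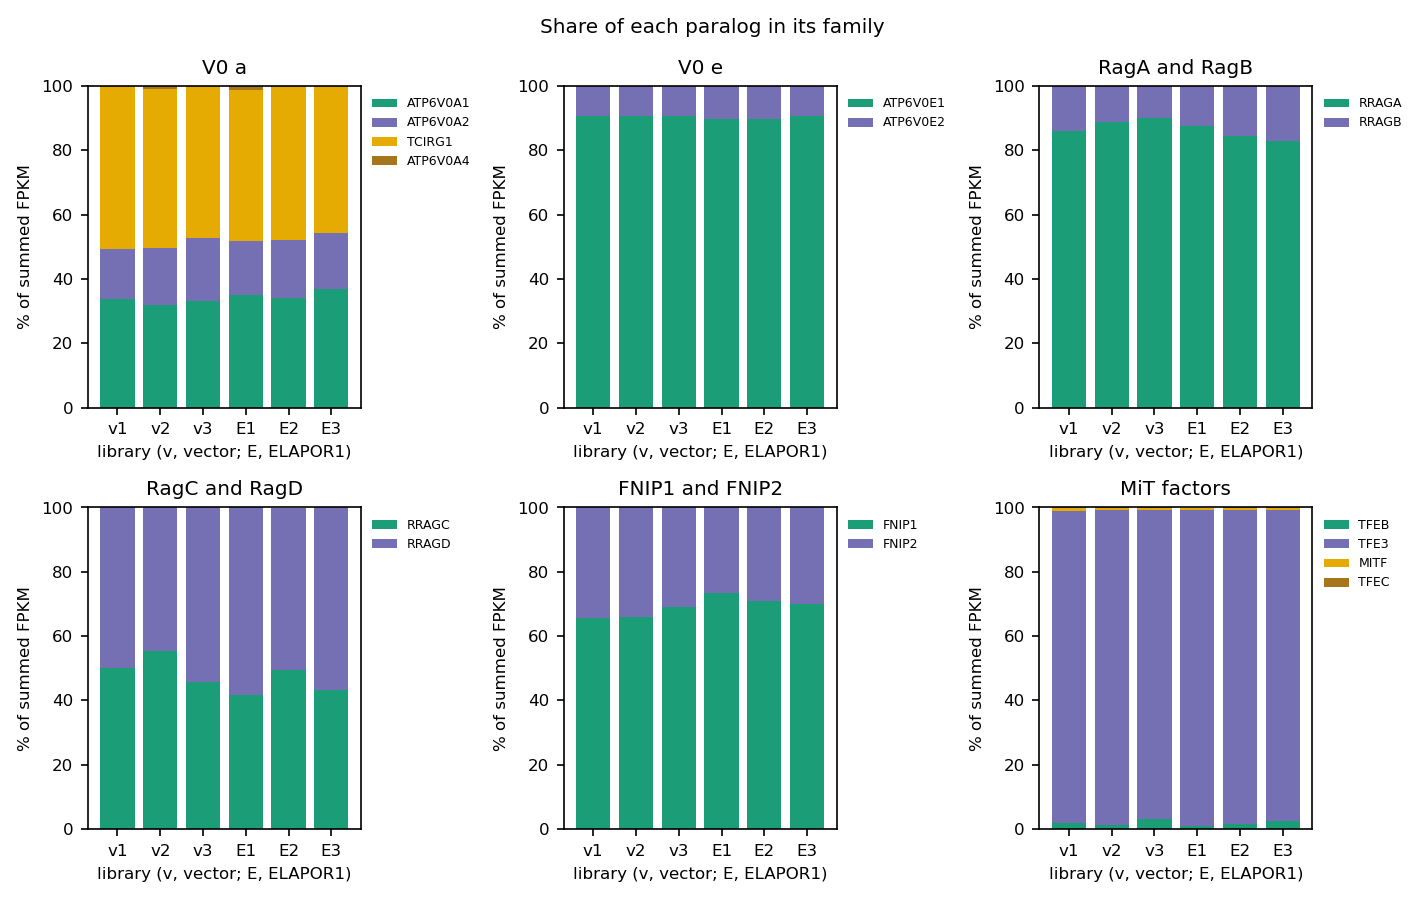
Share of each paralog in the summed FPKM of its family, stacked to 100% for each of the 3 vector libraries (v1 to v3) and the 3 ELAPOR1 libraries (E1 to E3). TCIRG1 is the largest part of subunit a, RRAGA holds over 83.0% of its family in every library, and TFE3 fills almost all of the MiT panel.

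The genes that feed into and out of the chain were read in 9 further lists. Of 132 genes tested in all lists 40 changed, or 30.3%, with 18 higher and 22 lower, against 21.4% of all genes tested and 27% of those that averaged 5 CPM or more. No test was made of that difference, and MCOLN1 stands in one of these lists as well as among the 42. The sensors upstream of Ragulator and the Rags showed the largest changes. Of 11 nutrient sensor genes tested 4 changed (36.4%, against the same 21.4% and 27%, differences not tested). GPR155, also called LYCHOS, a lysosomal cholesterol sensor that acts on GATOR1, fell from 98.7, 88.3 and 94.6 CPM to 38.8, 44.0 and 40.6 CPM (log2 fold change -1.19, SE 0.06, edgeR adjusted p = 9.71e-29). Its groups were far apart, with the highest ELAPOR1 library below the lowest vector library.

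SESN3, a stress-induced sestrin that restrains mTORC1 through GATOR2, fell from 116, 105 and 113 CPM to 74.1, 80.6 and 78.6 CPM (log2 fold change -0.52, edgeR adjusted p = 2.91e-14). SLC38A9, the arginine transporter that signals to the Rags from the lysosomal membrane, rose from 24.0, 22.1 and 20.3 CPM to 25.95, 29.3 and 32.1 CPM (0.40, adjusted p = 0.00033), a call lost with limma on FPKM. LARS1, a leucyl-tRNA synthetase proposed as a leucine sensor, had a log2 fold change of -0.19 (adjusted p = 3.1e-06). GPR155 is known as an activator of mTORC1 when cholesterol is plentiful and SESN3 as an inhibitor of it under stress, so that genes of opposite role fell. In GATOR2 and KICSTOR 2 of 9 changed (22.2%, against 21.4% of all genes). These were SEC13 (-0.22) and SEH1L (-0.15), both of which also serve in nuclear pores. Leaving out vector 3 ended the call on SEC13 (adjusted p = 0.0732) and leaving out vector 2 that on SEH1L (0.101), and limma on FPKM called neither.

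Around the pump itself, none of the 6 tested genes of 10 for tissue isoforms and minor subunits passed in edgeR, nor any of the 5 with an adjusted p in DESeq2 or of the 3 that limma tested. None of the 6 had an unadjusted edgeR p under 0.05, and the smallest was that of TCIRG1, at 0.503. Of 11 assembly and regulation genes 2 changed (18.2%, against 21.4% of all genes), and both rose. OXR1, a TLDc domain protein of a family that binds the V-ATPase, rose from 90.7, 92.1 and 90.1 CPM to 138, 133 and 129 CPM (log2 fold change 0.55, SE 0.04, edgeR adjusted p = 2.95e-17). Its libraries were tightly grouped on both sides. DMXL2, a rabconnectin that promotes assembly of V1 on V0, rose by 0.21 with overlapping groups (adjusted p = 0.0427), a call lost in 10 of 16 other settings.

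Growth factor and energy input had 9 changed genes of 23, 4 higher and 5 lower. That is 39.1%, against 21.4% of all genes and 27% of those that averaged 5 CPM or more, differences not tested. DDIT4, a stress-induced inhibitor that acts through the TSC complex, fell from 336, 329 and 346 CPM to 213, 190 and 223 CPM (log2 fold change -0.69, edgeR adjusted p = 1.07e-25). The receptor genes IGF1R and INSR rose by 0.34 and 0.30, the latter with overlapping groups and lost in 8 of 16 other settings. Of the partners of mTOR 2 of 10 changed (20%, against 21.4% of all genes). These were TELO2 (0.23) and AKT1S1 (-0.19), each lost in 8 of 16 other settings.

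Downstream of mTORC1, 4 of 16 substrate genes changed (25%, against 21.4% of all genes and 27% of those that averaged 5 CPM or more). EIF4EBP2 and PDCD4, both brakes on translation, had log2 fold changes of -0.18 and -0.21, and EIF4B and ATG13 rose by 0.08 and 0.13, calls lost in 7 and 10 of 16 other settings. In PDCD4, 29.5% of exonic bases are shared, most of them with BBIP1 on the opposite strand (2312 counts, log2 fold change -0.01). Among regulators of TFEB 4 of 14 changed (28.6%, against 21.4% of all genes and 27% of those that averaged 5 CPM or more). All 4 were lower: the calcineurin subunit PPP3CB (-0.19) and the YWHA adaptors YWHAH (-0.19), YWHAZ (-0.11) and YWHAE (-0.08). The YWHA family holds phosphorylated TFEB in the cytosol, and its members YWHAB (-0.03), YWHAG (-0.06) and YWHAQ (-0.07) did not pass. The call on YWHAE was lost in 4 of 16 other settings and that on PPP3CB in 1. The falls of the 4 called genes were small, from 0.876-fold for PPP3CB to 0.946-fold for YWHAE.

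The known targets of TFEB and TFE3 did not move in 1 direction. Of 32 tested 13 changed, 8 higher and 5 lower, with a median log2 fold change of 0.06 over the list. That is 40.6%, against 21.4% of all genes and 27% of those that averaged 5 CPM or more, differences not tested. CLCN7, a lysosomal chloride and proton exchanger, rose from 41.9, 44.8 and 40.3 CPM to 56.6, 52.2 and 52.1 CPM (0.34, edgeR adjusted p = 2.33e-05), and SQSTM1, an autophagy receptor, from 131, 138 and 135 CPM to 167, 163 and 170 CPM (0.31, adjusted p = 2.2e-09). SGSH, a lysosomal sulfatase, had a log2 fold change of -0.76 at 1.78 to 4.12 CPM, a call lost in 5 of 14 other settings. PPARGC1A rose by 1.72, but on 1 to 18 counts per library, and its call was lost in 7 of 11. Over the whole promoter table called genes with a match lay on both sides. Of the 216 tested genes with TCACGTGA 25.9% changed, 34 higher and 22 lower, with a median of 0.02. With GTCACGTGAC it was 23.3% of 86, 14 higher and 6 lower, with a median of 0.04. With the core CACGTG 28% of 1206 changed, 156 higher and 182 lower, with a median of -0.0033. All 10898 tested genes in the promoter table gave 24.2%, 1211 higher and 1422 lower, with a median of -0.0009. These differences were not tested.

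**Figure D5:**
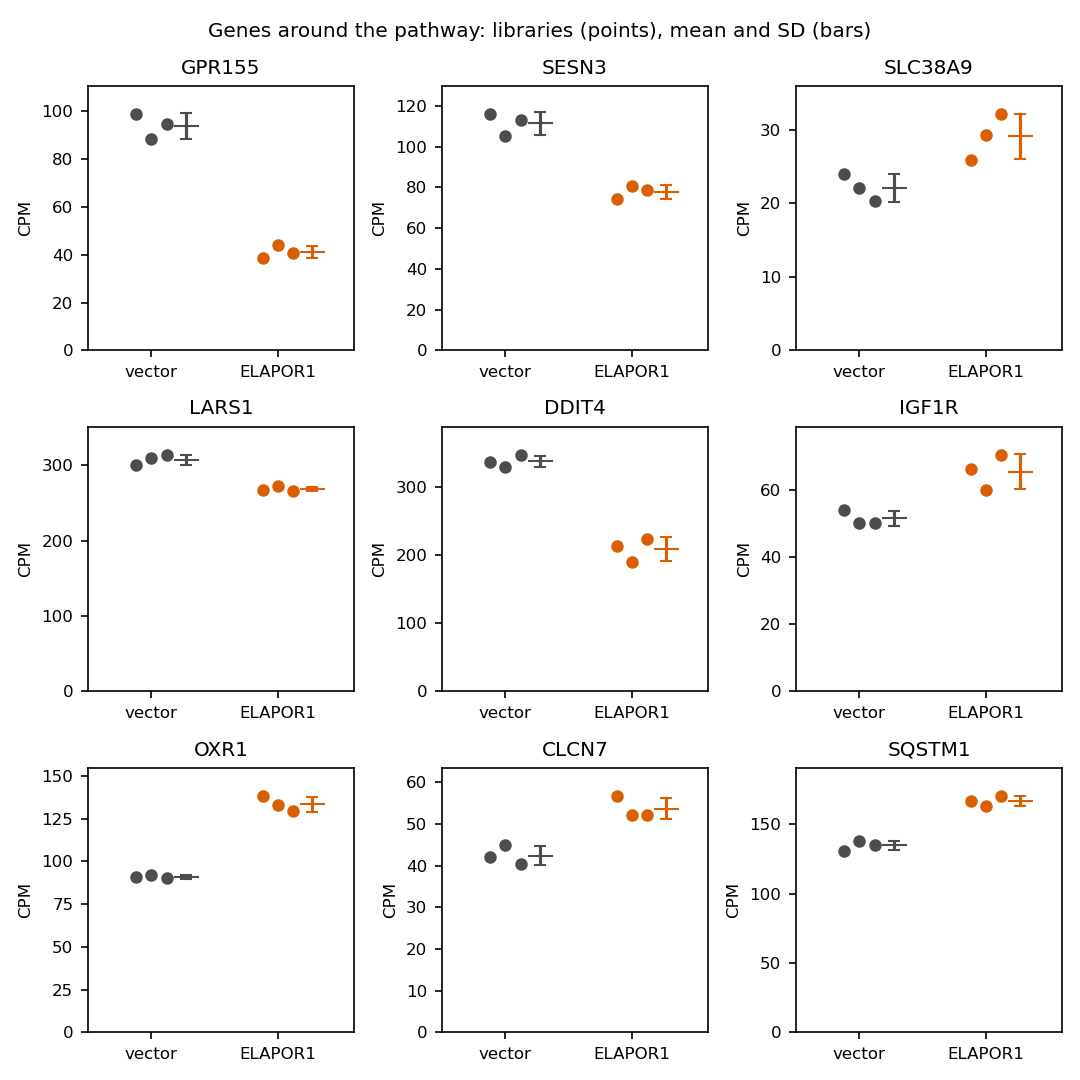
CPM of 9 genes around the chain in each library (points) with the mean and SD of 3 libraries beside them, on axes that start at 0: 4 nutrient sensor genes, 2 genes of growth factor and energy input, OXR1 of the pump regulators, and 2 targets of TFEB and TFE3. GPR155, SESN3, LARS1 and DDIT4 are lower in every ELAPOR1 library and the other 5 are higher.

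The authors' deposited table of their own comparison gave calls for 5 of the 42 genes at its adjusted p under 0.05, against 19.1% of all genes with such a value. In the authors' deposited table ATP6V0A1 (log2 fold change 0.21, adjusted p = 0.00136) and RRAGD (0.51, adjusted p = 0.00205) were higher and ATP6V1G1, LAMTOR4 and RRAGA were lower. ATP6V1D was not called in the authors' deposited table, where its adjusted p was 0.0632.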

How the data were processed

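RNA was sequenced from 3 vector and 3 ELAPOR1 libraries of SW620 cells, from poly(A) RNA with random priming, per the labels' protocols. Per the submitters' processing notes, cutadapt 1.9.1, HISAT2 2.0.1, HTSeq 0.6.1 and DESeq2 were used with GRCh38; the counting mode, strand setting and FPKM tool are not given in the sources used here. The authors deposited raw counts per gene and FPKM values (scaled to exonic length and sequencing depth), with column names K and NC. K was read as ELAPOR1, whose older symbol is KIAA1324, and NC as the negative control. The authors also deposited a table of their comparison with a mean normalized signal, log2 fold changes, their errors, a test score and p-values.

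The test was edgeR's quasi-likelihood F test (edgeR 4.0.16, R 4.3.3), after filterByExpr and TMM scaling of the counts, two-sided, with Benjamini-Hochberg adjustment over the 16003 genes tested and a threshold of 0.05. The SE divides the size of the log2 fold change by the root of the F statistic, and 95% intervals use the fit's degrees of freedom. CPM uses TMM factors. Alternatives used DESeq2 1.42.0 and limma 3.58.1. Scripts were tested on simulated data. Intervals cover the spread between libraries. The chi-square between libraries of a group (2.43 to 3.62 per gene) exceeded sampling noise, which cannot show whether they came from separate cultures. All 6 were kept as separate samples.

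Exon overlap came from GENCODE 29, and promoter words from a RefSeq table of GRCh38.p14. Among the 42, values per library are given for each gene past the threshold and for 12 genes that define the roles, whatever their result. Of each further list the text names up to 4 called genes with the largest absolute log2 fold change, or the gene of smallest p where none passed; 1 gene so picked is not reported here. The 42 genes and all lists were chosen with earlier results of these data known.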

Additional observations from a re-analysis of the deposited data

How the results depend on the processing

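Of the 6 changed genes RRAGA kept its call in all 16 alternatives tried; ATP6V0A1 and RRAGD lost theirs only with limma on FPKM (adjusted p up to 0.103 and 0.217), ATP6V1G1 only with limma on FPKM without a filter (0.0866), LAMTOR4 only without vector replicate 2 or ELAPOR1 replicate 3 (up to 0.0828) and ATP6V1D in 11 of them. The number of the 42 genes called higher, 2, was 0 with limma on log2(FPKM + 1), on log2(FPKM + 0.1) and on log2(FPKM + 1) without a filter, where 3 had an unadjusted p under 0.05 in each; it ranged from 2 to 4 when each library was left out in turn, with 4 without vector replicate 1 (LAMTOR3 and MTOR added). The number called lower, 4, was 2 with limma without a filter and ranged from 2 to 4 when each library was left out, with 2 without vector replicate 2 and 2 without ELAPOR1 replicate 3. The replicate numbers did not pair the libraries (correlations of the deviations of same-numbered libraries -0.02, -0.03 and -0.02); with the replicate number as a block 2 genes were called higher and 3 lower, ATP6V1D being lost, and 3361 genes were called in all. Uncalled genes near 0 changed sign: ATP6V0C was at -0.00324, -0.00535 and -0.00324 with the 3 limma fits and from -0.11 to 0.20 when each library was left out; RPTOR at -0.00461 with library sizes alone, at -0.00571, -0.00659 and -0.00571 with the limma fits and from -0.0139 to 0.0421 by library; TSC2 ranged from -0.0366 to 0.0368 and TFEB from -0.53 to 0.17 by library. No paralog share difference changed sign under any alternative tried. Of 26 genes picked from the further lists 11 kept their call in every alternative and 15 lost it in at least 1. Leaving out 1 library ended the calls on DMXL2 (vector 2 or 3, ELAPOR1 1 or 2; adjusted p up to 0.340), TELO2 (vector 2, ELAPOR1 1 or 2; 0.219), AKT1S1 (vector 2 or 3, ELAPOR1 2 or 3; 0.215), ATG13 (vector 1 or 3, ELAPOR1 2 or 3; 0.0865), EIF4B (vector 2, ELAPOR1 1 or 2; 0.0982), INSR (vector 1 or 2, ELAPOR1 1 or 2; 0.319), PPP3CB (ELAPOR1 2; 0.0513), YWHAE (vector 3, ELAPOR1 2 or 3; 0.140), PPARGC1A (vector 1 or 2, ELAPOR1 1 or 3; 0.261) and SGSH (vector 1 or 2, ELAPOR1 2; 0.113). TFEB, SGSH and PPARGC1A have no value where a filter on low values removed them. Calls over all genes fell to 2364 with DESeq2, to 2133, 2098 and 1378 with limma, of which 727, 713 and 452 were higher beside 1607 of 3427; the cause was not tested. Over all genes the median change (log2) stayed between -0.02 and 0.02. Depth limits TFEB and MITF, at 10 to 54 counts per library.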
